A study of Mus musculus with 8 samples.

Results

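Basophils of the mouse liver were taken as the CD45+ single-cell profiles that held at least 3 of the 6 transcripts Mcpt8, Cpa3, Ms4a2, Cyp11a1, Gata2 and Fcer1a and no transcript of Cd79a, Trac, Clec4f or Kdr, which mark B cells, T cells, Kupffer cells and endothelial cells. Of 48465 cells that passed the filters on genes and mitochondrial transcripts, 86 met this rule, or 0.177%. The cells came from 8 female C57BL/6J mice aged 9 weeks, 4 labelled Control and 4 labelled BG, none bearing a tumor. BG mice received 1.2 mg of odetiglucan, a soluble yeast beta-glucan also called Imprime PGG, intravenously on day 0, and their livers were taken on day 2; Control mice were untreated, so the injection and the compound cannot be told apart. Each liver gave 1 library of CD45+ cells, together with cells that a Ficoll gradient recovered from the CD45 flow-through to gain Kupffer cells, profiled by droplet sequencing from the 3′ end with unique molecular identifiers (UMIs), so that each count is 1 captured RNA molecule.

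Basophils are rare granulocytes that carry the high-affinity IgE receptor and release histamine, lipid mediators and the type 2 cytokines IL-4 and IL-13 when it is cross-linked. They grow and survive on IL-3, respond to IL-33 and IL-18, and depend on the transcription factor GATA-2, which they share with mast cells. In the mouse they are told from mast cells by the protease Mcpt8 and the lack of Kit. Resident basophils of the mouse lung are known as a source of cytokines that act on macrophages.

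The promoters of 3 of the transcripts that chose the cells and of 2 other leading transcripts are shown because the cells were in part chosen by Gata2, and GATA factors bind the letters AGATAA. The sequences are from RefSeq, mouse build GRCm38.p6, written 5′ to 3′ on the strand of the gene from 250 bases before to 50 bases after its start. Capitals mark AGATAA or its reverse complement TTATCT and, in Il6, TGAGTCA, the reverse complement of the AP-1 letters TGACTCA.
Cpa3 promoter (chr3:20242132-20242431, minus strand): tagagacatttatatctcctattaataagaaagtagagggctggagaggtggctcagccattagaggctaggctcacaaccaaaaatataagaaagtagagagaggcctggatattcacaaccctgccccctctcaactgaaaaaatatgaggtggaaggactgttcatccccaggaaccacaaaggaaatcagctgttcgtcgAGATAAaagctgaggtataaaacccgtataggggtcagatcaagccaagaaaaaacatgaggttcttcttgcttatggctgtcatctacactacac
Ms4a2 promoter (chr19:11623670-11623969, minus strand): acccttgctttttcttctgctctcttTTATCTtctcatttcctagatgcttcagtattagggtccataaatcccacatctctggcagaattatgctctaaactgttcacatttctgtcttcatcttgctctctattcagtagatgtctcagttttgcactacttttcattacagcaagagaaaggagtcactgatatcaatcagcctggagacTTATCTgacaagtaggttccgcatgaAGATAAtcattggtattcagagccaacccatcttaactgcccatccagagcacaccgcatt
Fcer1a promoter (chr1:173227180-173227479, minus strand): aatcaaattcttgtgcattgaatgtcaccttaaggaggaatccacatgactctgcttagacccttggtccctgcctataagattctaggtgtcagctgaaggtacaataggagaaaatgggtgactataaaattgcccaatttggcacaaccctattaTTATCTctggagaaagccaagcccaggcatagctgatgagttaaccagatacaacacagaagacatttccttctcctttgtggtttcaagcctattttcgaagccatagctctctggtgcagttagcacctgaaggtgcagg
Cd200r3 promoter (chr16:44943428-44943727, plus strand): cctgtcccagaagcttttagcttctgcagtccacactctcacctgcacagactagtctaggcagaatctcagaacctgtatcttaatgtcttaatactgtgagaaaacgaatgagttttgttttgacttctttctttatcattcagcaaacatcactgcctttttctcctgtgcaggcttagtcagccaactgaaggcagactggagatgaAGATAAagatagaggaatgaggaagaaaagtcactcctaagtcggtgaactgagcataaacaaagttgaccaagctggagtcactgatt
Il6 promoter (chr5:30012864-30013163, plus strand): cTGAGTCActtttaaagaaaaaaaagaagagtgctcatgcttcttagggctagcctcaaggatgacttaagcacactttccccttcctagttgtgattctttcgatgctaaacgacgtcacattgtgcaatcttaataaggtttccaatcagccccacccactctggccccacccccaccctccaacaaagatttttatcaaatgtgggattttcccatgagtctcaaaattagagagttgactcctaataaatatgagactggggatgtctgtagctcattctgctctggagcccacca
The match lay 46 bases before the start in Cpa3, 92 in Fcer1a and 39 in Cd200r3, and Ms4a2 held 3, at 224, 37 and 11 bases. Among the 25 genes with the highest ratio of basophils to other cells, described below, 21 had a promoter in the table, and AGATAA on either strand was in 7 of them (33.3%; Cpa3, Ms4a2, Fcer1a, Cd200r3, Il1rl1, Prss34 and Slc18a2). Gata2, Mcpt8 and Cyp11a1 of the rule had no match. Counted by promoter, 8 of the 25 promoters of these 21 genes (32%) held AGATAA. Of all 32851 promoters of this length, 3672 (11.2%) held it. TGACTCA on either strand was in 1 of the 21 genes (Il6). By promoter it was in 1 of the 25 (4%) and in 1709 of all promoters (5.20%). These are matches of letters and were not tested as binding sites.

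Each library held between 39612380 and 60654583 UMIs. BG replicate 5 stood apart before filtering, with 27873 barcodes of a median of 34 genes and 98.6% mitochondrial UMIs. The basophils held 242651 UMIs in all, with a median of 2412.5 per cell (range 1199 to 7834) and 960.5 genes, beside 2735 UMIs and 1148 genes in the other kept cells. Levels are given as CPM, the UMIs of a gene per 1000000 UMIs of the basophils of a mouse, or of all mice where libraries are called pooled. In the basophils of 1 library, 1 UMI was worth 19.3 to 65.4 CPM, and 3 UMIs over all 86 cells, taken as the floor of detection, were worth 12.4 CPM. Such floors and all intervals cover counting error only. Fewer transcript-bearing cells and less RNA per cell cannot be told apart in a summed level.

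The 6 transcripts of the rule were near absent elsewhere, which describes the rule and is not a finding. Cyp11a1, the enzyme that starts steroid synthesis from cholesterol, was detected in 79 of the 86 cells (91.9%), Gata2 in 69, and Ms4a2, the beta chain of the IgE receptor, in 65. Cpa3, a granule carboxypeptidase of mast cells and basophils, was detected in 55, Fcer1a, the alpha chain of the receptor, in 53, and Mcpt8 in 49 (57.0%). In 12387 T cells with Trac and Cd3e, of median 3453 UMIs, Cyp11a1 was detected in 0.0404%, Gata2 in 1.21% and Ms4a2 in none. In 7045 B cells with Cd79a and Ms4a1, of median 1979 UMIs, Cyp11a1 was detected in 0.170% and Gata2 in 0.355%.

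Cells near the limit of the rule were few. With no transcript of the 4 excluded genes, 77 cells held 1 of the 6 transcripts, 15 held 2, 27 held 3, 22 held 4, 21 held 5 and 16 held all 6. The 15 cells just outside had a median of 1807 UMIs, and 3 of them held Il4, 11 held Cd200r3 and 13 held Ccl3. The 27 cells just inside had a median of 2336 UMIs, and 26 of them held Cyp11a1, 12 held Cd200r3 and 27 held Ccl3. The exclusion step removed 42 of 128 cells with at least 3 of the transcripts, of which 26 held Trac and 19 held Kdr. Among 249 cells with at least 3 neutrophil transcripts, 12.9% held Trac and 24.9% held Kdr. The limit of 30% mitochondrial UMIs removed 34 further barcodes and the limit of 2500 genes removed 4. Of the 48465 kept cells 615 shared their barcode with a kept cell of another library, 1 basophil among them, and no barcode was a basophil in more than 1 library.

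Markers of other cells were counted over whole lists. Of 8 eosinophil markers, Siglecf and Ccr3 were detected, with 4 and 7 UMIs in all. Of 7 neutrophil markers, Mmp9 was detected with 4 UMIs and Cxcr2, a chemokine receptor, with 79 UMIs (326 CPM), while the defining S100a8 and Retnlg were at 0. At least 2 hepatocyte markers were present in 13 of the 86 cells. Hepatocytes left aside, at least 2 markers of another cell type were present in 24 cells, 8 of them for T cells, 7 for NK cells, 5 for monocytes and macrophages, 4 for mast cells, 4 for endothelial cells, 2 for conventional dendritic cells, 1 for B cells and 1 for neutrophils. The pan-leukocyte transcript Ptprc (CD45) was found in 41.9% of basophils and 76.7% of the other kept cells. Cd200r3, a receptor that the rule did not use, was detected in 56 of 86 cells (65.1%). It was detected in 0.0646% of T cells and 0.0994% of B cells, both chosen to hold fewer than 3 transcripts of the rule.

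Basophils were recovered from all 8 livers, and their share did not differ between the groups beyond the spread among mice. Control replicates 1 to 4 gave 4, 19, 14 and 7 basophils, or 0.0585%, 0.272%, 0.180% and 0.113% of kept cells. BG replicates 5 to 8 gave 11, 12, 7 and 12, or 0.254%, 0.208%, 0.146% and 0.210%. The groups overlapped, with Control replicate 1 the lowest and Control replicate 2 the highest of all. The Wilson 95% interval of Control replicate 1 was 0.0228% to 0.1504% and that of Control replicate 2 was 0.174% to 0.424%. The mean was 0.156% ± 0.0919 in Control and 0.204% ± 0.0445 in BG (SD, n = 4 each), a difference of 0.0488 percentage points (exact permutation test over mice, two-sided, p = 0.371; the smallest p possible with 4 against 4 is 0.0286). When cells were thinned to 1000 UMIs, leaving out 946 Control and 648 BG cells of fewer, the means were 0.0804% and 0.163% (exact permutation test, p = 0.0571), and with at most 10% mitochondrial UMIs they were 0.250% and 0.147% on 21 basophils (exact permutation test, p = 0.457), so that the direction turned with the mitochondrial limit. Without the cells that held a mast cell marker the difference was 0.0415 percentage points.

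**Figure D1:**
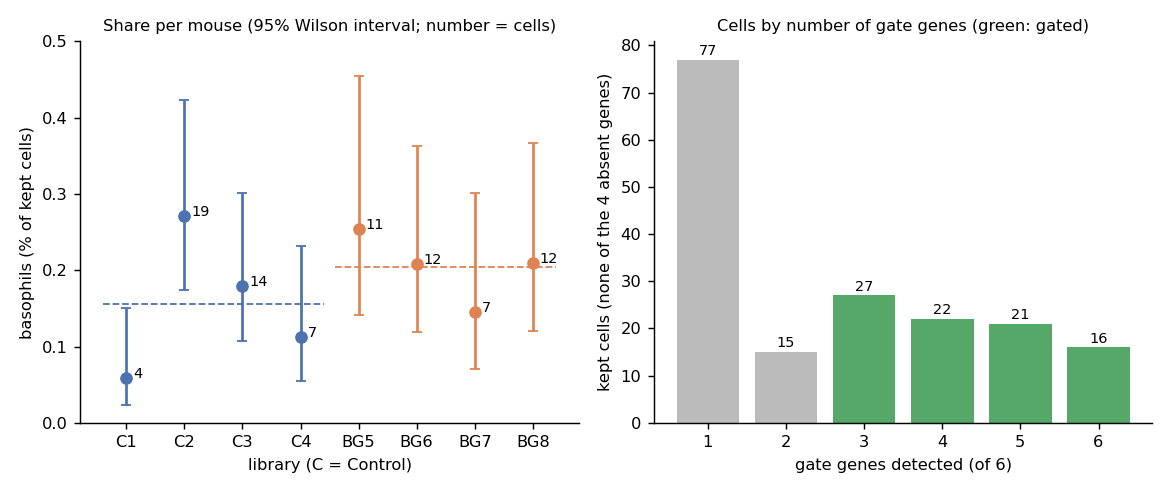
Basophils as a percent of kept cells in each of the 8 mice, with Wilson 95% intervals and group means as dashed lines, and the number of kept cells by how many of the 6 transcripts of the rule they held. Control shares lie between 0.0585% and 0.272% and BG shares between 0.146% and 0.254%, and the groups overlap.

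The RNA content of the basophils also overlapped between the groups. Median UMIs per basophil were 3742.5, 2507, 2376 and 2128 in Control replicates 1 to 4 and 2060, 2405.5, 3368 and 2546 in BG replicates 5 to 8. Over the 5 mice with at least 10 basophils (Control replicates 2 and 3 and BG replicates 5, 6 and 8), the mean of the medians was 2441.5 UMIs in Control and 2337 in BG, a difference of -104 (exact permutation test, two-sided, p = 0.9; smallest possible 0.1). Median genes per basophil were 980 and 916, a difference of -64.6 (exact permutation test, p = 0.8; adjusted over the 2 tests, 0.9 for both). Without BG replicate 5, whose basophils had the lowest median UMIs, both differences turned positive, to 34.25 UMIs and 13.75 genes.

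The transcripts that set basophils apart, apart from those of the rule, included those of granules, a set of chemokines and growth factors, and the enzymes of histamine and lipid mediators. These comparisons with other cells describe the cells the rule chose and carry no test. Of 1220 genes at 100 CPM or more, 364 were higher than in the other kept cells in each of the 5 mice with at least 10 basophils, 81 of them over 10-fold and 20 over 100-fold. The 25 genes with the highest ratio included all 6 of the rule, and 22 of the 25 were higher in all 8 libraries. The other 3 were Prss34 (6 libraries), Il1rl1 (7) and Ptgs2 (7). The 19 outside the rule were led by Ifitm1, a membrane protein of the interferon-induced family, at 3200.5 to 5688 CPM in the 8 libraries and 9.48 to 18.1 CPM in the other cells. Gated neutrophils held Ifitm1 at 1125 CPM, and Ptgs2 at 684 CPM against 416 CPM in pooled basophils. Neither transcript was limited to basophils. Csrp3, a LIM-domain protein best known from muscle, ran from 191 to 704 CPM in basophils against 0.330 to 1.30 CPM. Rab44, a large Rab GTPase that acts in mast cell degranulation in the mouse, ran from 196 to 436 CPM against 0.456 to 0.991 CPM.

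**Figure D2:**
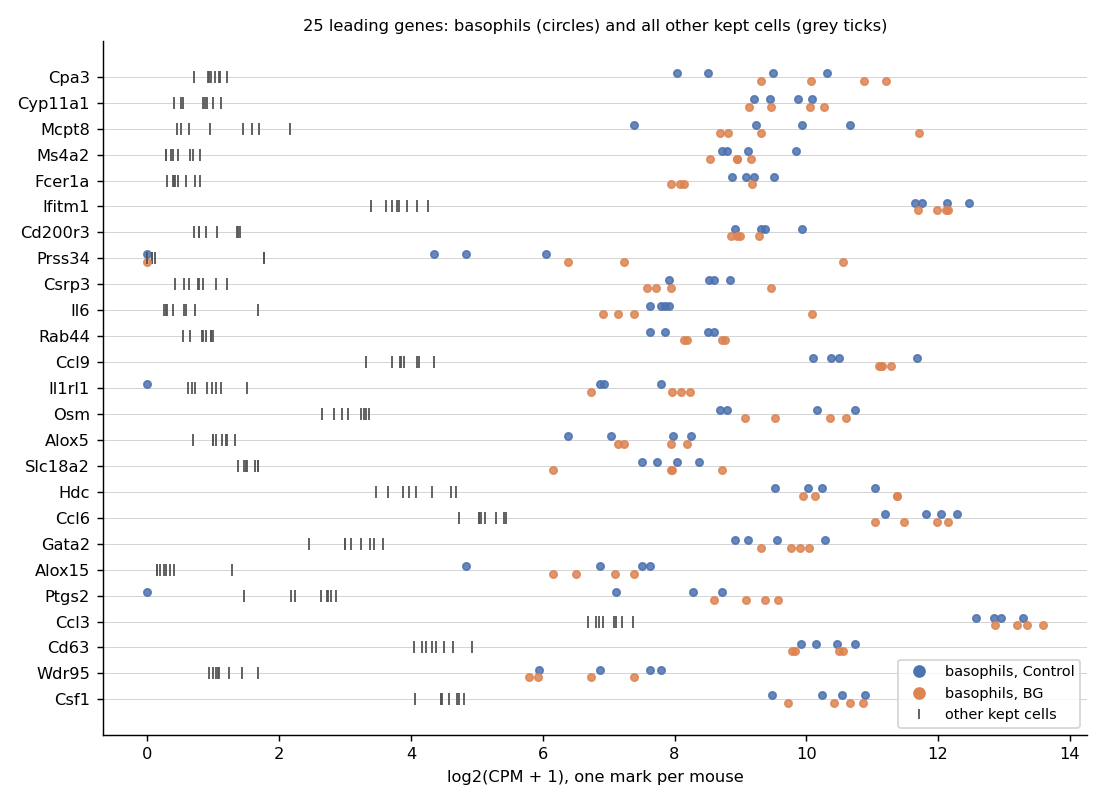
Level in basophils and in all other kept cells of the 25 genes with the highest ratio, as log2(CPM + 1), each circle or tick being 1 mouse. Ifitm1 lies between 3200.5 and 5688 CPM in basophils, and Prss34 and Ptgs2 have libraries at 0.

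Granule genes were carried by most libraries, with 1 exception. All 8 genes of the granule list outside the rule were detected. Of these, 7 were higher in basophils than in the other cells over pooled libraries, 3 of them over 10-fold. With Mcpt8 and Cpa3 of the rule included, the list summed to 7793 CPM in basophils and 4596 CPM in gated neutrophils. Srgn, the proteoglycan that packs granule proteases, was at 2592 CPM in basophils and 734 CPM in others, and Cd63, a tetraspanin of granule membranes that marks degranulation, at 1261 and 20.6 CPM. Cd63 was at 1700, 1409, 1131 and 966 CPM in Control replicates 1 to 4 and at 911, 1498, 878 and 1444 CPM in BG replicates 5 to 8, and the groups overlapped. Prss34, the basophil protease mMCP-11, was at 65.4, 19.3, 27.6 and 0 CPM in Control and at 82.8, 150, 0 and 1499 CPM in BG. It was detected in 7 cells with 65 UMIs in all, 54 of them (83.1%) in 1 cell of BG replicate 8.

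The IgE receptor and signaling list, 2 chains of the rule included, summed to 4129 CPM in basophils, 3767 CPM in gated monocytes and macrophages, 3157 CPM in gated neutrophils and 1483 CPM in all other kept cells. Of this list, 14 genes outside the rule were measured, all 14 were detected and 7 were higher in basophils than elsewhere, 2 over 10-fold. Fcer1g, the shared gamma chain, was at 1751 CPM in basophils and 445 CPM in the other cells, and its lowest and highest libraries were 1379 and 2157 CPM in Control and 1201 and 2248 CPM in BG. The adaptor Lat2, which works beside LAT below the receptor, was at 363 against 35.4 CPM, and the adaptor Gab2 at 115 against 5.15 CPM. Among 27 surface receptors, 25 were detected, 21 were higher in basophils than in all other kept cells and 11 were over 10-fold. Their sum was 6244 CPM in basophils, 6592 CPM in gated neutrophils and 4035 CPM in gated monocytes and macrophages. Cd69, an early activation marker, was at 1887 against 346 CPM; Cd9, a tetraspanin, at 684 against 71.0 CPM; and Lilrb4a, an inhibitory receptor, at 511 against 21.6 CPM. C3ar1, the C3a receptor, was at 190 against 2.75 CPM, and Ccr1, a receptor for CCL3, at 181 against 5.20 CPM.

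Cytokine receptors included subunits for IL-3, IL-18 and IL-33. Of 20 genes, 19 were detected, 11 were higher in basophils than in all other kept cells and 4 were over 10-fold. Their sum was 2444 CPM in basophils, 2122 CPM in gated monocytes and macrophages and 1385 CPM in gated neutrophils. Csf2rb, the common beta chain, was at 556 CPM in basophils and 16.9 CPM in other cells, and Csf2rb2, the beta chain used by IL-3 alone in the mouse, at 202 and 8.52 CPM. Il18rap and Il18r1, the chains of the IL-18 receptor, were at 350 and 276 CPM against 41.8 and 37.2 CPM. Il1rl1, the IL-33 receptor ST2, was at 0, 116, 221 and 121 CPM in Control and at 248, 300, 105 and 272 CPM in BG, so that the groups overlapped. Il3ra, the alpha chain for IL-3, was found in 10 of 86 cells, at 45.3 CPM against 19.8 CPM. Il7r, a chain of the IL-7 receptor, was found in 30 of 86 cells, at 218 CPM against 201 CPM. Ifngr1, a chain of the IFN-gamma receptor, was lower in basophils, at 53.6 against 190 CPM.

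Chemokines were among the most widely detected transcripts of these cells. Of 19 cytokines and chemokines, 15 were detected, 14 were higher than in all other kept cells and 11 were over 10-fold. Their sum was 26627 CPM in basophils, 16114 CPM in gated neutrophils and 3260 CPM in gated monocytes and macrophages. Ccl3 and Ccl4, chemokines that attract leukocytes, were found in 83 and 85 of 86 cells, with a median of 19 UMIs per cell each. Ccl3 was at 7911, 6097, 7362 and 10024 CPM in Control replicates 1 to 4 and at 9439, 12314, 7481 and 10464 CPM in BG replicates 5 to 8, against 128 CPM in the other kept cells over pooled libraries. The groups overlapped. Ccl6 and Ccl9, both ligands of CCR1, were found in 76 and 79 cells, and Ccl6 was at 3445 CPM against 34.5 CPM in other cells, with gated neutrophils at 1682 CPM. Csf1, the growth factor of macrophages, was found in 71 cells, at 1315 against 22.3 CPM, Osm, the IL-6 family cytokine oncostatin M, in 62, at 898 against 7.49 CPM, and Hgf, the hepatocyte growth factor, in 45, at 305 against 12.2 CPM.

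The type 2 cytokines were found in few cells and Il6 in more. Il4 was found in 20 of 86 cells and Il13 in 4, and 22 cells held either. Il4 was at 0, 57.9, 82.7 and 60.4 CPM in Control and at 41.4, 210, 105 and 2534 CPM in BG. One cell of BG replicate 8 held 88 of the 111 Il4 UMIs (79.3%), and the other 7 libraries lay between 0 and 210 CPM. The same cell held 26 of the 79 Il6 UMIs (32.9%), 157 UMIs of Ccl3, 122 of Ccl4, 52 of Hdc and 43 of Mcpt8. Il6 was found in 33 cells of all 8 libraries, and was at 0.578 CPM in other cells. In basophils it was at 196, 232, 221 and 242 CPM in Control and at 166, 120, 140 and 1090 CPM in BG. The Control values lay within the range of the BG values, and the 196 CPM of Control replicate 1 were 3 UMIs. The Il6 promoter, printed above, was the only one of the 21 with the AP-1 letters.

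Histamine synthesis and lipid mediators were represented by 10 genes, of which 8 were detected and higher in basophils than in all other kept cells, 6 of them over 10-fold. With Cyp11a1 of the rule included, the list summed to 4529 CPM in basophils. In gated neutrophils it summed to 2817 CPM and in gated monocytes and macrophages to 870 CPM. Hdc, the histidine decarboxylase that makes histamine, was found in 75 cells at 1545 CPM, against 16.3 CPM in all other cells and 1005 CPM in gated neutrophils. Slc18a2, which loads histamine into granules, was at 251 against 1.98 CPM, and was at 0 in gated neutrophils. Alox5 and its activator Alox5ap, which begin leukotriene synthesis, were at 198 and 1113 CPM against 1.10 and 56.0 CPM. Alox15, a 12/15-lipoxygenase, was at 111 against 0.333 CPM. Ltc4s, the enzyme of leukotriene C4, and Ptgdr2, the prostaglandin D2 receptor, had no UMI in the 86 cells, which allows a level of up to 12.4 CPM.

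Of 18 transcription factors outside the rule, 17 were detected, 12 were higher than in other cells and 3 were over 10-fold. With Gata2 included, the list summed to 3124 CPM in basophils, 3273 CPM in gated monocytes and macrophages and 3922 CPM in gated neutrophils. Cebpb and Cebpa, C/EBP factors of granulocytes, were at 598 and 190 CPM against 177 and 10.3 CPM, and Runx1 at 420 against 120 CPM. Tal1, a partner of GATA factors, was at 74.2 against 5.91 CPM. Irf8, which drives monocytes and dendritic cells, was lower in basophils, at 41.2 against 251 CPM. The immediate early genes, which any stimulus including tissue dissociation induces, were high in every library: 17 of 22 were higher than in other cells and 5 were over 10-fold. Their summed level was 59885, 49899, 56138 and 40399 CPM in Control and 43674, 44012, 38248 and 42592 CPM in BG, against 10338 to 11694 and 7935 to 8803 CPM in the other cells of the same mice. The other cells did not overlap between the groups and the basophils did.

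Fewer antigen presentation and interferon genes were higher in basophils than lower. Of 17 MHC class I genes 1 was higher in basophils, and B2m, the light chain of class I, was at 1080 CPM against 2403 CPM. Of 51 genes induced by type I interferon, 43 were detected and 4 were higher in basophils, and Ifi27l2a, one of the most induced, was at 140 against 779 CPM. Bcl2, a survival gene of lymphocytes, was at 41.2 against 320 CPM and Mcl1, which granulocytes depend on, at 565 against 307 CPM. The 9 genes of beta-glucan receptor signaling summed to 626 CPM in basophils and 608 CPM in other cells. In gated monocytes and macrophages the sum was 1249 CPM, and in gated neutrophils it was 1605 CPM. Of the 9 genes, 7 were detected and 5 were higher in basophils than in all other kept cells. The integrin chain Itgam (CD11b) was the 1 gene over 10-fold, at 161 against 14.6 CPM. Syk, the kinase of the pathway, was at 74.2 against 94.2 CPM, Tlr2 and Src had no UMI, Card9 had 1, and Clec7a, which encodes Dectin-1, was not analysed here.

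**Figure D3:**
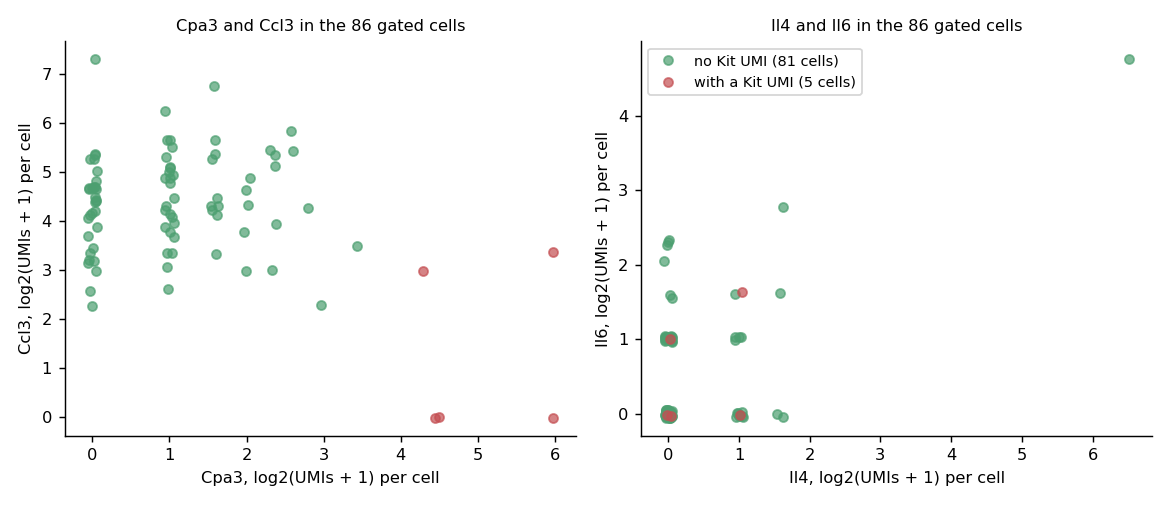
Cpa3 against Ccl3 and Il4 against Il6 in the 86 basophils as log2(UMIs + 1) per cell, each point being 1 cell (shifted slightly so that equal cells can be seen), with the 5 cells that held Kit in red. The 5 cells with Kit hold 18 to 61 Cpa3 UMIs and the other 81 at most 10, and 1 cell at the upper right holds 88 Il4 and 26 Il6 UMIs.

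The 86 cells were not of 1 kind. A Kit transcript was found in 5 cells, 2 of Control replicate 2 and 1 each of BG replicates 5, 6 and 8, and 3 of the 5 also held the mast cell chymase Cma1, with 46 UMIs. These 5 cells held 181 of the 294 Cpa3 UMIs (61.6%). Summed over cells, Cpa3 was at 8760 CPM in the 5 and at 509 CPM in the other 81, and Ccl3 was at 774 against 9415 CPM. Ccl6, Cd200r3, Csrp3, Hgf and Ptgs2 had no UMI in the 5 cells and were at 3766, 617, 369, 333 and 455 CPM in the other 81. Ms4a2 was at 290 and 532 CPM and Gata2 at 1210 and 766 CPM. Mcpt8 was at 2081 CPM in the 5 cells, 4 of which held it, and at 1072 CPM in the other 81. The Kit and Cma1 transcripts go against the label of basophils and the Mcpt8 transcripts do not. The 5 cells were chosen after their values were seen, so these levels carry no test; they are kept in the count of 86, and the share and the counts of genes that differed with BG are also given without them.

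Transcripts of MHC class II were carried by a few cells as well. Cd74, the invariant chain, had 252 UMIs in 9 cells, 237 of them in 3. A cell of BG replicate 7 with 7834 UMIs, the most of all basophils, held 129 Cd74 and 59 H2-Aa UMIs. A cell of Control replicate 2 with 6967 UMIs held 97 Cd74 UMIs and 102 Cst3 UMIs. The summed class II level was 1765, 4998, 82.7 and 121 CPM in Control and 41.4, 59.9, 10291 and 164 CPM in BG, so that the libraries with these cells were the high ones in each group. No doublet caller was run, and whether these droplets held a second cell was not tested.

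The cells with and without Mcpt8 are set side by side as a description. Mcpt8 is part of the rule, so that a cell without it held at least 3 of the other 5 transcripts, and depth differed as well. The 49 cells with a Mcpt8 UMI had a median of 2677 UMIs and the 37 without had 2099. Il4 was at 685 CPM in the cells with Mcpt8 and at 46.3 CPM in those without, Il6 at 448 and 104 CPM, and Prss34 at 416 and 0 CPM. The cell of BG replicate 8 described above held most of the Il4 difference, since it carried 88 of the 111 UMIs. It also carried 26 of the 79 Il6 UMIs. For Prss34, another cell of BG replicate 8, which held Mcpt8, carried 54 of the 65 UMIs.

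The response of the basophils to BG was tested on UMIs summed per mouse, over the 5 mice with at least 10 basophils, by the edgeR quasi-likelihood test with Benjamini-Hochberg adjustment. No gene of 488 tested passed an adjusted p of 0.05 with a log2 fold change past 0.5 (0% called), while at an unadjusted p of 0.05 there were 23 higher and 6 lower in BG. The smallest adjusted p was 0.0531. With all 8 mice, 0 of 362 genes passed (0% called; 9 higher and 2 lower at an unadjusted p of 0.05). DESeq2 called 0 as well, with 12 higher and 3 lower at an unadjusted p of 0.05. The labels give no batch, and these p-values measure the spread between the libraries of these mice alone. The hepatocyte list summed to 65.4 to 174 CPM in Control basophils and to 248 to 1678 CPM in BG basophils, with no overlap. How many other lists did not overlap was not counted. All 7 markers were detected, with 121 UMIs in all, led by Alb with 50. For Alb, 1 cell held 14 of the 50 UMIs, for Apoa2 11 of 18 and for Fabp1 9 of 12. The 65.4 CPM of Control replicate 1 were 1 UMI. In the other kept cells the hepatocyte sum was 304 to 645 CPM in Control and 180 to 619 CPM in BG. The part of hepatocyte transcripts in the comparison was not tested.

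Of the 10 genes named for their unadjusted p, 5 in each direction, none passed. The upper 5 were Osm, Hdc, Ptgs2, Ccl9 and Cxcl2, which encode 3 cytokines or chemokines and 2 enzymes of mediator synthesis. Osm was at 1700, 444, 414 and 1147 CPM in Control replicates 1 to 4 and at 538, 1318, 738 and 1553 CPM in BG replicates 5 to 8, so that the groups overlapped over 8 mice and did not over the 5. Its log2 fold change was 1.54 ± 0.40 (SE; edgeR, adjusted p = 0.0531) over 5 mice and 0.44 ± 0.43 (edgeR, adjusted p = 0.987) over 8. Hdc was at 1046, 733, 1213 and 2114 CPM in Control and at 1118, 2667, 983 and 2671 CPM in BG. Its log2 fold change was 1.30 ± 0.34 (edgeR, adjusted p = 0.0531) over 5 mice and 0.72 ± 0.37 (edgeR, adjusted p = 0.966) over 8, and the groups overlapped in both.

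Ptgs2, the inducible cyclooxygenase, kept most of its difference over all mice. It was at 0, 309, 138 and 423 CPM in Control and at 662, 539, 386 and 763 CPM in BG, where 3 BG libraries lay above every Control library and BG replicate 7 lay below Control replicate 4. The log2 fold change was 1.58 ± 0.45 (edgeR, adjusted p = 0.0918) over 5 mice and 1.44 ± 0.47 (edgeR, adjusted p = 0.966) over 8. Ccl9 was at 3269, 1100, 1323 and 1449 CPM in Control and at 2194, 2487, 2248 and 2262 CPM in BG, with Control replicate 1, of 4 cells, the highest of all. Its log2 fold change was 1.05 ± 0.30 (edgeR, adjusted p = 0.0925) over 5 mice. Cxcl2, a neutrophil chemokine, was at 0, 116, 0 and 1147 CPM in Control and at 290, 0, 0 and 1008 CPM in BG, with 37 of its 69 UMIs in BG replicate 8, and 4 libraries were at 0. Gated neutrophils held Cxcl2 at 8972 CPM.

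The lower 5 were Cst3, Rpl28, Fosb, Klf6 and Klf2. Cst3, the protease inhibitor cystatin C that dendritic cells and macrophages hold in quantity, was at 523, 2489, 248 and 543 CPM in Control and at 455, 210, 702 and 491 CPM in BG. Its log2 fold change was -1.78 ± 0.46 (edgeR, adjusted p = 0.0531), and it turned to 0.75 without Control replicate 2, where 1 cell held 102 of the 129 UMIs. Fosb, an AP-1 subunit, was at 6211, 7988, 9430 and 4227 CPM in Control and at 5713, 5393, 4917 and 3761 CPM in BG, with a log2 fold change of -0.72 ± 0.28 (edgeR, adjusted p = 0.393). In the other kept cells of the 8 mice Fosb fell by 0.54 and Klf2, a quiescence factor, fell by 0.71 on the log2 scale (edgeR, adjusted p = 0.0108 and 0.0173). In basophils the log2 fold change of Klf2 was -0.90 over 5 mice and -0.28 over 8, that of Klf6 was -0.78 and -0.47, and that of the ribosomal protein Rpl28 was -0.87 and -0.40.

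**Figure D4:**
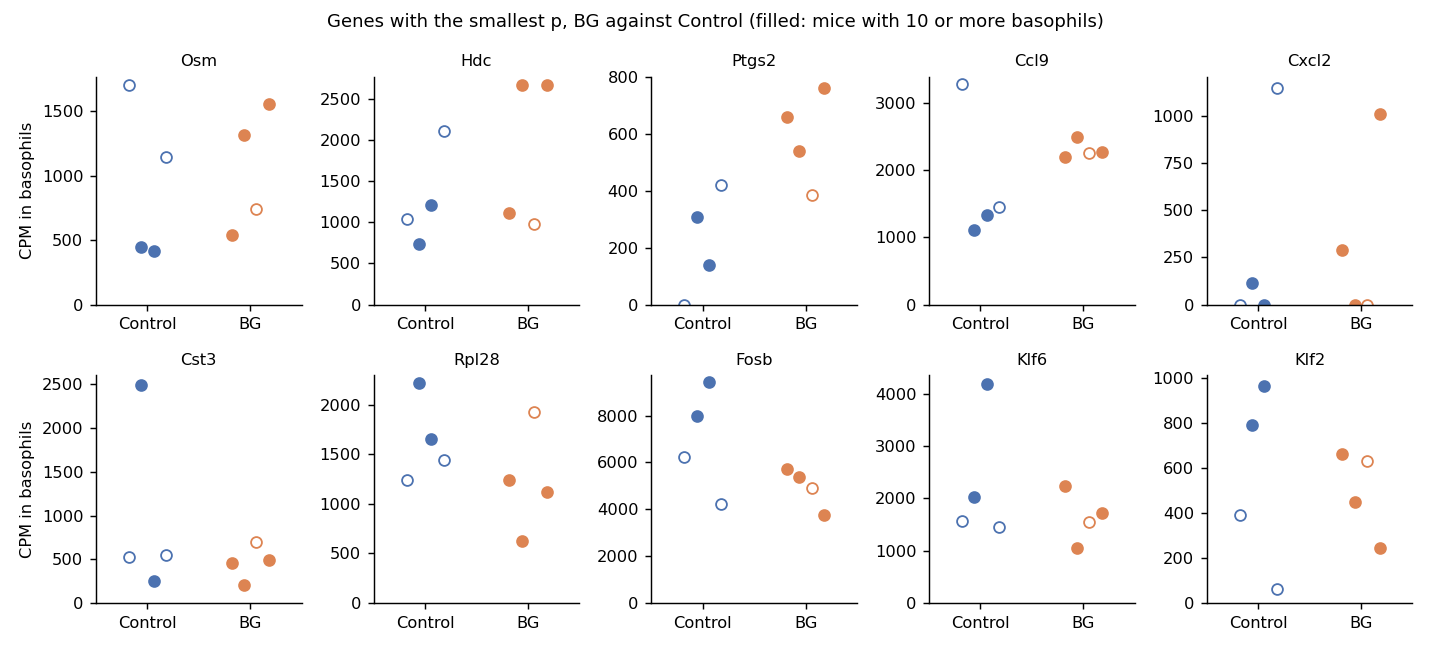
CPM in the basophils of each mouse for the 10 genes of smallest unadjusted p, 5 in each direction, Control in blue and BG in orange, with mice of fewer than 10 basophils as open circles. For Osm, Control replicates 1 and 4, at 1700 and 1147 CPM from 4 and 7 cells, lie among the BG mice.

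Leaving out the 5 cells with mast cell markers moved the counts. Over the same 5 mice, 4 genes then passed as higher in BG and 1 as lower, of 426 tested: Hdc (log2 fold change 1.36; edgeR, adjusted p = 0.0127), Osm (1.60, 0.0143), Ptgs2 (1.66, 0.0221) and Ccl9 (1.11, 0.0437) higher, and Cst3 (-1.74, 0.00502) lower. With the 3 mice of fewer than 10 basophils added back, 0 of 323 passed without those cells. Transcripts of the rule, Mcpt8 among them, are kept out of these counts, since the rule chose the cells by them. Without BG replicate 5, Hdc and Osm passed as higher. Without Control replicate 2, 8 genes passed as higher, and without Control replicate 3, 5 higher and 8 lower, but each of these fits has 1 Control library left, whose spread is assumed to be that of the BG libraries. Over all alternatives 22 genes passed at least once, and in 15 of these more than 40% of the UMIs were in 1 cell. Examples are Clu, a chaperone, with 48 of 52 UMIs in 1 cell, Spp1, the cytokine osteopontin, with 50 of 55, Lyz2, the lysozyme of myeloid cells, with 43 of 54, and Cxcl9, a chemokine induced by interferon gamma, with 25 of 26. Of the 22 genes, 14 were too sparse to be tested over the 5 mice.

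By role, the tested genes had these values without any passing. All 488 genes had a median log2 fold change of 0.01, and 247 of them were positive. Of the cytokines and chemokines 9 of 19 could be tested, 8 of 9 were positive and the median was 0.70 over 5 mice, and 5 of 6 were positive with a median of 0.44 over 8 mice. Their summed level was 26608, 18215, 23051 and 29770 CPM in Control and 24673, 35923, 24972 and 34744 CPM in BG, where the groups overlapped. Of histamine and lipid mediator genes 4 of 10 could be tested, with a median of 0.90 over 5 mice, and of surface receptors 7 of 27, with a median of 0.71 that was 0.11 over 8 mice. Of the immediate early genes 14 of 22 could be tested, 6 of 14 were positive and the median was -0.06 over 5 mice and -0.18 over 8. The 1 survival gene tested was at -0.82 over 5 mice. None of these genes passed the test, so no list had a called member.

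The type I interferon genes rose in the other liver cells and could hardly be tested in basophils. In the other kept cells, 44 of the 50 interferon genes tested rose with BG (edgeR, 8 mice), where 143 of all 13962 genes tested rose (1.02%) and 50 fell (0.358%). Their summed level there was 4153 to 4581 CPM in Control and 7304 to 9269 CPM in BG, with no overlap. In basophils 1 of the 51 genes was abundant enough to be tested, Ly6e, with a log2 fold change of 0.73 (edgeR, adjusted p = 0.705). Ly6e was at 1831, 772, 965 and 845 CPM in Control and at 1242, 1258, 1019 and 1472 CPM in BG. The summed level of the list in basophils was 3138, 2103, 1792 and 1751 CPM in Control and 3726, 3026, 4461 and 3570 CPM in BG, and the groups overlapped by Control replicate 1, the library of 4 basophils, alone. The list was chosen with its rise in these mice already known. BG replicate 7, the highest, also held the cell with the most UMIs, and Bst2 and Ifi27l2a were there at 386 and 773 CPM against at most 290 and 164 CPM in the other libraries.

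**Figure D5:**
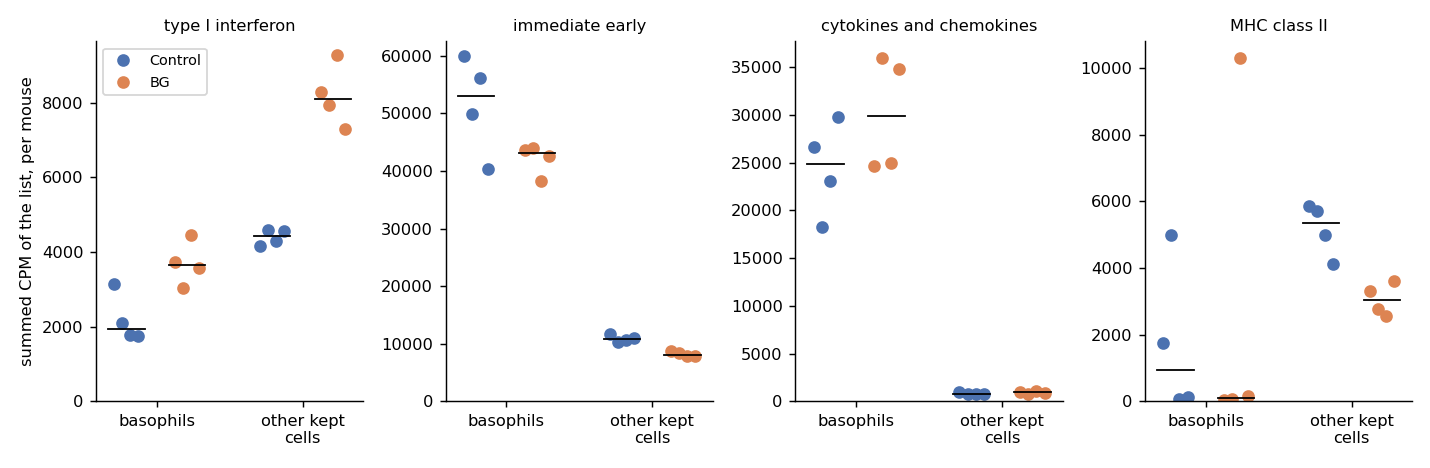
Summed CPM of gene lists in the basophils and in the other kept cells of each mouse, Control and BG, on linear axes from 0, with the group median as a line. The type I interferon list separates the groups in the other cells (4153 to 4581 against 7304 to 9269 CPM) and overlaps in basophils through Control replicate 1.

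Whether the response of basophils differed from that of the other cells was tested directly, as the interaction of cell kind and treatment with the mouse as a block. No gene of 488 passed (edgeR, 0% called; smallest adjusted p = 0.734; 18 at an unadjusted p of 0.05), and limma's voom test also called 0, with 22 at an unadjusted p of 0.05. Against gated neutrophils 1 of 488 genes passed, Ccl5, with a higher response in the gated basophils (log2 difference 3.34 ± 0.85). Against gated monocytes and macrophages 3 of 488 passed, Cxcl2 with a higher response in basophils and Cst3 and Plac8 with a lower one. For Cst3, 1 cell held 102 of the 129 UMIs of Control replicate 2. For Cxcl2, BG replicate 8 held 37 of the 69 UMIs. With all 8 mice 0 of 362 passed, with 7 at an unadjusted p of 0.05. The interferon genes, too sparse in basophils to be tested singly, were not part of this comparison apart from Ly6e.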

How the data were processed

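The authors aligned the reads to the mm10 mouse genome with Cell Ranger 6.1.2, introns included, and deposited raw UMI counts of 32285 genes for 127557 barcodes, 1 matrix per mouse and no cell annotation. Cells with 200 to 2500 genes and at most 30% mitochondrial UMIs were kept (Control 27841, BG 20624). No doublet caller was run. Basophils were gated by the rule given above. UMI counts were summed per mouse and tested with edgeR 4.0.16 (quasi-likelihood test, filterByExpr with a minimum count of 10, TMM, Benjamini-Hochberg) over mice with at least 10 basophils, and over all 8; calls needed an adjusted p under 0.05 and a log2 fold change past 0.5. DESeq2 1.42.0 and limma 3.58.1 were alternatives. Genes were named by the 5 smallest p in each direction, since none was called, and leading genes by their ratio to other cells among those of at least 100 CPM, with 1 CPM added. Shares were compared by exact permutation of mice. The fits were tested on simulated data. The members, the gene lists and the tests were chosen with earlier results of these data known. Clec7a, Mx1 and Mx2 were not analysed here.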

Additional observations from a re-analysis of the deposited data

Results flagged for a closer look

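Among 134 groups of 4 mice, 19 values in basophils lay farther from their group than Dixon's 95% limit allows. That limit flags about 1 in 20 groups of normally distributed values, and many groups here are sparse counts. A group with all libraries but 1 at 0 is always flagged. Mcpt8 and Fcer1a, which are flagged, are transcripts of the rule. The number flagged is therefore not compared with chance. In BG replicate 8, Mcpt8 was at 3352 CPM (nearest 632), Prss34 at 1499 (nearest 150) and Il6 at 1090 (nearest 166). In BG replicate 7 the summed levels were 10291 CPM for MHC class II (nearest 164), 2494 for conventional dendritic cells (nearest 27.3), 2388 for NK cells (nearest 245), 35.1 for plasmacytoid dendritic cells (nearest 0) and 2423 for transcription factors (nearest 3505). In BG replicate 5, Fcer1a was at 580 CPM (nearest 281) and Csrp3 at 704 (nearest 246).

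In Control replicate 2, Cst3 was at 2489 CPM (nearest 543), the mast cell list at 386 (nearest 0) and the erythroid list at 38.6 (nearest 0). In Control replicate 1, from 4 cells, Ccl9 was at 3269 CPM (nearest 1449) and the transcription factor list at 5099 (nearest 2836). In Control replicate 3 the beta-glucan receptor signaling list was at 331 CPM (nearest 772) and the Kupffer cell list at 27.6 (nearest 0). In Control replicate 4, Cxcl2 was at 1147 CPM (nearest 116) and the eosinophil list at 181 (nearest 27.6). Several of these rest on 1 cell or on 1 or 2 UMIs, since 1 UMI was worth 19.3 to 65.4 CPM.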

How the results depend on the processing

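No paired analysis was possible because the replicate numbers run from 1 to 8 and are not shared between the groups. The difference in share kept its direction except with at most 10% mitochondrial UMIs, where it was -0.103 percentage points, and leaving out each mouse gave 0.0164 to 0.0875. Leaving out each mouse gave differences of -209 to 34.25 in median UMIs and of -114 to 13.75 in median genes; both turned positive without BG replicate 5 (34.25 and 13.75). Of 30 alternatives for the BG comparison in basophils, 6 gave a call. Without cells with a mast cell marker 4 genes were higher and 1 lower. Without a filter 4 were higher and 7 lower of 9495. Leaving out each mouse gave 0 to 8 higher and 0 to 8 lower (8 higher without Control replicate 2, 5 higher and 8 lower without Control replicate 3, 2 higher without BG replicate 5, where leaving out a Control mouse leaves 1 Control library, assumed to vary like the BG libraries, and with all mice 1 higher, Gzmb, without Control replicate 2). Cst3 was -2.70 without Control replicate 3 and turned to 0.75 without Control replicate 2 and to 0.27 there with all mice, and Klf2 to 0.0593 without Control replicate 3 with all mice. For the interaction, 5 of 9 alternatives gave a call: 1 higher against neutrophils, 1 higher and 2 lower against monocytes and macrophages, and, leaving out each mouse, 0 to 1 higher (without Control replicate 2, Gzmb; without BG replicate 5, Alb) and 0 to 1 lower (without Control replicate 3, Cst3). The cause of these changes was not tested. The gate of at least 4 transcripts with mice of at least 10 basophils was not run, since 1 mouse reached that number; with all mice it gave 0 of 274 genes. Chosen after seeing the data were, for the share, the alternatives without a mitochondrial limit, without mast cell markers and without other-type markers, and, for the BG comparison, these and the one with no gene required absent; so were the all-mice versions other than the plain all-mice fit over basophils, including those of the interaction and of RNA content. Depth limits the tests: 488 of 10067 genes with a UMI in basophils held enough to be tested over 2 Control and 3 BG mice, and a gene with no UMI may still be at up to 12.4 CPM.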
